A study of Homo sapiens with 4 samples.

Results

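This account covers 8 genes of the transcription factor network that sets liver identity: FOXA1, FOXA2, FOXA3, CEBPA, CEBPB, ONECUT1, ONECUT2 and PROX1. They were chosen by gene symbol, and since each had exactly 1 probe set, the rule of taking the brightest one made no choice. They are 8 of 22395 genes with a symbol of their own in a table of 53617 probe sets. The cells were Huh7, a human hepatocellular carcinoma line, transfected either with pcFLAG-hSTYK1, a plasmid that expresses human STYK1, or with pcFLAG, the plasmid that served as control. STYK1 is a receptor-like protein kinase, and the comparison asks which transcripts differ when it is overexpressed. Each group had 2 arrays of RNA from whole cultures. The time after transfection and the share of cells that took up the plasmid were not found in the labels, and nothing in the labels says that the arrays of a group came from separate cultures.

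FOXA proteins carry a forkhead domain with which they bind sites in closed chromatin, and they help open liver enhancers before other factors bind there. C/EBP proteins are basic leucine zipper factors: CEBPA is tied to hepatocyte differentiation and metabolism, and CEBPB to the acute phase response, stress and regeneration. ONECUT proteins carry a cut domain beside a homeodomain and act in the choice between hepatocyte and bile duct fates. PROX1 is a homeodomain protein of early liver progenitors, and it also defines lymphatic endothelium.

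None of the 8 factors changed past the test, and FOXA3 had the largest difference. Limma, with adjustment over all 53617 probe sets, passed 0 of 8 at an adjusted p under 0.05 and had 0 of 8 at an unadjusted p under 0.05. Of all probe sets, 0.00187% passed the first threshold and 4.64% the second. The second count was 1 of 8, FOXA3, after quantile normalization, after centring and with the median over a gene's probe sets (described with FOXA3). In these alternatives 2517 and 2624 of 53617 probe sets and 1009 of 22395 genes had an unadjusted p under 0.05. The arrays of the groups did not overlap for 3 of the 8, FOXA3 and CEBPA (lower with STYK1) and ONECUT2 (higher), which makes 37.5%. Of all probe sets 32.8% did not overlap, so the factors lie near the background. With 2 arrays a side, the smallest two-sided p an exact permutation test can reach is 0.333, so no such test was run.

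STYK1 itself, which checks the labels, read 0.26 and 0.61 on the control arrays and 7.40 and 7.86 on the STYK1 arrays (log2 signal; limma, adjusted p = 0.0373). It was the 1 probe set that passed, and it did not pass with any 1 of the 4 arrays left out. The floor stands for background: it is the signal under which 95% of the 462 probe sets of olfactory receptor genes lay on an array. It was 0.746 to 0.775 on the 4 arrays. All 8 factors were above it on all 4 arrays, as were all 13 hepatocyte and hepatoma markers, among them ALB at 10.4 to 10.6 and AFP at 9.21 to 9.33. The keratins among these markers read far lower, KRT18 at 1.65 to 1.74 and KRT8 at 0.80 to 1.59, which reaches close to the floor. Pearson correlations between arrays were 0.985 to 0.987. The number of arrays limits the precision: the standard error of a difference was 0.095 to 0.34 log2 units for the 8 factors.

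**Figure D1:**
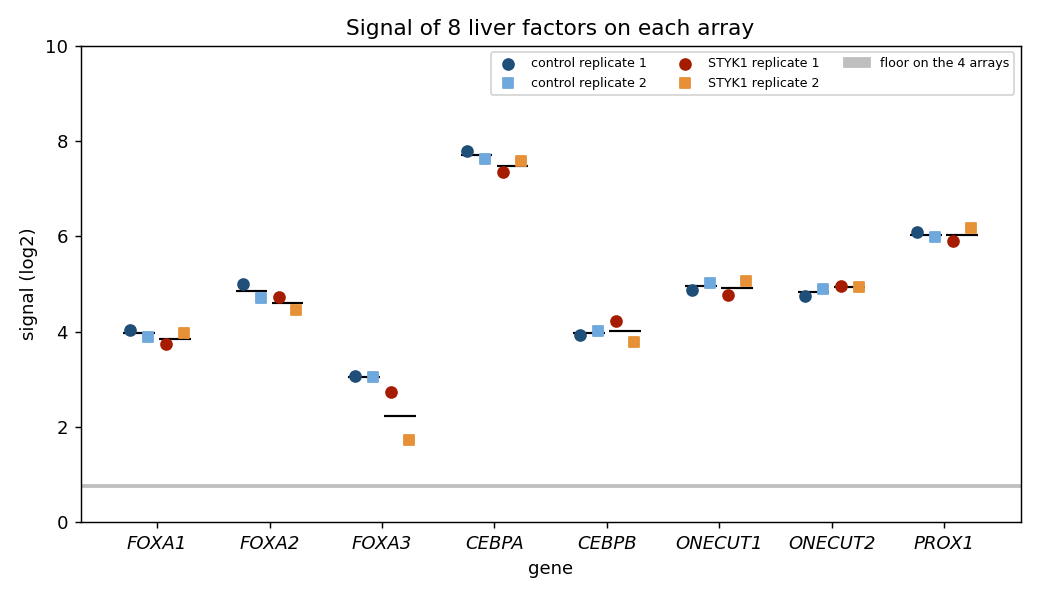
Log2 signal (vertical axis) of the 8 factors on each of the 4 arrays; points are arrays, black bars are group means and the grey band is the floor, from 0.746 to 0.775. FOXA3 on STYK1 replicate 2 stands at 1.73, apart from its other 3 points, which lie between 2.73 and 3.06.

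The promoters of the 3 genes whose groups did not overlap are shown to give the sequence beside their values. Each is the 250 bases before the annotated start, from RefSeq on build GRCh38.p14. Capitals mark the letters TATAAA, as found in a TATA box, and GGGCGG, the GC box bound by SP factors, or their reverse complements.
FOXA3, chr19:45864076-45864325, plus strand: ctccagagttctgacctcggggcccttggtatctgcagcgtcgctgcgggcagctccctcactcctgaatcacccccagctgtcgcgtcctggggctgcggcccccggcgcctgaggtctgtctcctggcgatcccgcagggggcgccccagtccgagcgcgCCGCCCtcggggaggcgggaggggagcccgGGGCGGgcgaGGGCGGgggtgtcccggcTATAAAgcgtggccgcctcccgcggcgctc
CEBPA, chr19:33302535-33302784, minus strand: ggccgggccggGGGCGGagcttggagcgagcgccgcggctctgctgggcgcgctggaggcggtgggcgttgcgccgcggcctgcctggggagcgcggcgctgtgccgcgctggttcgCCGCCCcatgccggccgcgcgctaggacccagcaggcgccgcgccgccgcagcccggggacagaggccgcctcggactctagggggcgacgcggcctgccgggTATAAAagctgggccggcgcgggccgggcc
ONECUT2, chr18:57435124-57435373, plus strand: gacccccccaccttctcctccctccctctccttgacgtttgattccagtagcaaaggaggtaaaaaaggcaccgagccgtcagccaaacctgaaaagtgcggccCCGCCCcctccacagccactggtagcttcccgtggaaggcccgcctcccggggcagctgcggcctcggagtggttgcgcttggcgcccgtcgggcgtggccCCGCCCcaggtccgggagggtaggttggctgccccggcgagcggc
FOXA3 and CEBPA each held TATAAA at positions −30 to −25 from the start, and ONECUT2 held none. Over the 35116 windows of this length in the table, 10.7% held TATAAA on either strand. GC made up 75.2% of the FOXA3 window, 81.2% of the CEBPA window and 68.8% of the ONECUT2 window.

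RefSeq promoter windows were found for 6 of the 8 genes, 7 windows in all since CEBPB had 2 starts, and were searched on both strands. GGGCGG was in all 6 genes, against 42.6% of all windows, and TATAAA in 3, the third being CEBPB. CCAAT, after which the C/EBP family was named, was in 2, CEBPB and ONECUT1, against 32% of all windows. The forkhead letters TGTTTNC were in 1, FOXA1, against 15.5%. Neither the C/EBP letters TTGCNNAA (9.05% of all windows) nor the ONECUT letters ATTGAT (5.58%) were in any of the 7. These letter matches are a description of the windows and were not related to the array values.

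FOXA3, the member of the forkhead family tied to glucose metabolism in adult liver, read 3.06 and 3.05 on the control arrays, 2.73 on STYK1 replicate 1 and 1.73 on STYK1 replicate 2. Both STYK1 arrays lay below both controls, and STYK1 replicate 2 lay far below STYK1 replicate 1. The means were 2.23 ± 0.71 with STYK1 and 3.06 ± 0.0077 in the control (SD, n = 2). The difference was −0.82 (standard error 0.34), or 1.77-fold lower, and its 95% interval ran from −1.70 to 0.055 (limma, adjusted p = 0.979). The difference is smaller than the gap of 0.997 between the STYK1 arrays themselves. Without STYK1 replicate 2 it was −0.32, and without STYK1 replicate 1 it was −1.32. Leaving out control replicate 1 gave −0.82, and leaving out control replicate 2 gave −0.83. Its unadjusted limma p was 0.0606 with all 4 arrays. That p was 0.0456 after quantile normalization, 0.0419 after centring and 0.0317 with the median over a gene's probe sets. It was 0.0516 with the replicate number as a block and 0.0510 with trend and robust fitting in eBayes. With only probe sets above the floor on 2 or more arrays it was 0.0735. Quantile normalization and centring also moved the median difference over all probe sets down, by −0.0094 and −0.038. FOXA3 has 1 probe set, so the median left its values unchanged and only the eBayes prior was estimated anew. With a STYK1 array left out, the only spread of FOXA3 in the fit was the gap of 0.011 between the controls. Fits with a single array in a group are therefore given by their differences alone. With all 4 arrays, whether the 95% interval of FOXA3 covered 0 depended on normalization, centring and the eBayes prior.

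Both the difference and the spread of FOXA3 lay at the edge of the table. Of 9622 genes above the floor on all 4 arrays, 41 had a gap between the STYK1 arrays as large as that of FOXA3 or larger, FOXA3 included, or 0.426%. Its gap of 0.011 between the controls was among the smallest, with 4.66% of genes at that size or under it. A difference of −0.82 or lower was read for 5 genes: FOXA3, CCDC134 and the small RNAs SNORD3C, MIR3137 and SNORD9, the last 4 named after their values were seen. CCDC134, a protein of the secretory pathway, read 3.49 and 3.46 in the controls and 2.80 and 2.49 with STYK1. The 3 small RNAs had control arrays further apart than FOXA3, for example 7.13 and 5.96 for SNORD3C.

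**Figure D2:**
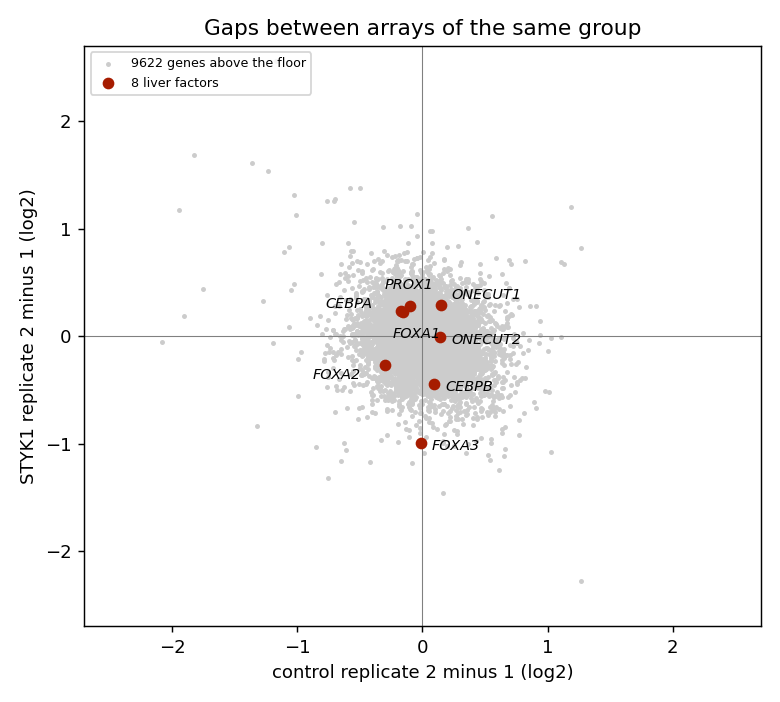
Gap between the 2 control arrays (horizontal axis, replicate 2 minus 1, log2) against the gap between the 2 STYK1 arrays (vertical axis, log2) for 9622 genes above the floor (grey) and the 8 factors (red). FOXA3 lies near 0 on the control axis and 0.997 below 0 on the STYK1 axis, while the other 7 lie within the cloud.

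FOXA2, which acts with FOXA1 in specifying the liver and governs genes of fasting and bile acid handling, read 5.01 and 4.71 in the controls and 4.73 and 4.46 with STYK1. The groups overlapped, with control replicate 1 highest and STYK1 replicate 2 lowest. The difference was −0.26 (standard error 0.15), with a 95% interval of −0.67 to 0.14 (limma, adjusted p = 0.979). It ran from −0.41 without control replicate 2 and −0.40 without STYK1 replicate 1 to −0.13 without STYK1 replicate 2 and −0.12 without control replicate 1. FOXA1, its close relative, read 4.04 and 3.89 in the controls and 3.74 and 3.96 with STYK1, and the groups overlapped here too. Its difference was −0.11 (standard error 0.12), with an interval of −0.43 to 0.20 (limma, adjusted p = 0.985), and with 1 array left out it ran from −0.22 (without STYK1 replicate 2) to −0.0016 (without STYK1 replicate 1). All 3 FOXA genes had a lower mean with STYK1. Quantile normalization and centring each made these differences lower still, and moved the median over all probe sets down too. That the direction held under them is therefore no check of it.

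CEBPA read 7.79 and 7.62 in the controls and 7.36 and 7.59 with STYK1. The groups did not overlap, but control replicate 2 at 7.62 and STYK1 replicate 2 at 7.59 lay close together. The difference was −0.23 (standard error 0.13), or 1.17-fold lower, and the interval ran from −0.56 to 0.098 (limma, adjusted p = 0.979). Of the genes above the floor, 14.7% had a difference of that size or larger in either direction. It was −0.35 without STYK1 replicate 2 and −0.11 without STYK1 replicate 1.

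CEBPB read 3.92 and 4.02 in the controls, 4.23 on STYK1 replicate 1 and 3.78 on STYK1 replicate 2. The STYK1 arrays thus held both its highest and its lowest value, with both controls between them. The difference of the means was 0.033 (standard error 0.17), with an interval of −0.41 to 0.48 (limma, adjusted p = 0.999). It turned to −0.19 without STYK1 replicate 1 and to −0.014 without control replicate 1, and was −0.0047 when arrays were centred. STYK1 replicate 1 was the array where CEBPB was highest and CEBPA lowest.

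ONECUT2 read 4.76 and 4.90 in the controls and 4.95 and 4.94 with STYK1. Both STYK1 arrays lay above both controls, with 4.90 and 4.94 as the nearest values. The difference was 0.12 (standard error 0.095), with an interval of −0.13 to 0.37 (limma, adjusted p = 0.981), and it was 0.047 without control replicate 1 and 0.19 without control replicate 2. ONECUT1, the founding member of the family in liver, read 4.88 and 5.03 in the controls and 4.77 and 5.06 with STYK1, so both control values lay between those of the STYK1 arrays. Its difference was −0.032 (standard error 0.14), with an interval of −0.39 to 0.32 (limma, adjusted p = 0.999), and it turned to 0.11 without STYK1 replicate 1 and to 0.042 without control replicate 2. ONECUT3, the other family member, was not above the floor on any array.

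PROX1 read 6.08 and 5.98 in the controls and 5.90 and 6.18 with STYK1. Here too the controls lay between the STYK1 arrays. The difference was 0.0018 (standard error 0.13), with an interval of −0.33 to 0.34 (limma, adjusted p = 1.00). Its sign changed with scaling, at −0.024 after quantile normalization and −0.036 after centring, and it was −0.14 without STYK1 replicate 2 and −0.048 without control replicate 2. Of the lymphatic markers that PROX1 accompanies in endothelium, LYVE1 was not above the floor on any array, and FLT4 and PDPN were above it on 2 each.

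**Figure D3:**
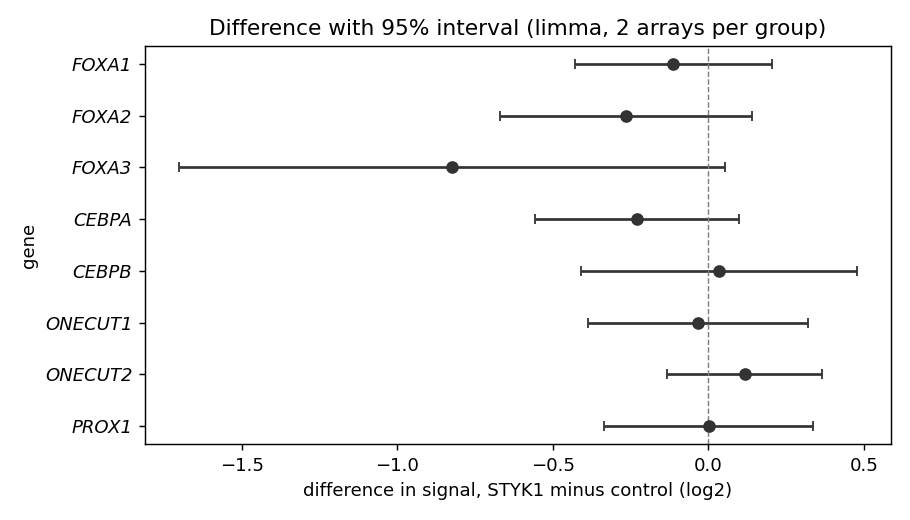
Difference in log2 signal, STYK1 minus control (horizontal axis), for each factor; points are limma estimates from 2 arrays per group and bars are 95% intervals. All 8 intervals cover 0; that of FOXA3 is the widest, from −1.70 to 0.055.

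Over the 8 factors, 5 had a lower and 3 a higher mean with STYK1, and their median difference was −0.072. The median over all 22395 genes was 0.0022, with 49.2% of them lower. In size, the median difference was 0.12 for the 8 and 0.097 for the 9622 genes above the floor. For the 7 factors other than FOXA3, the intervals reached from −0.67 at the lowest to 0.48 at the highest, so none of these 95% intervals reached a 2-fold change. For each of the 8, the larger of the gaps between arrays of the same group exceeded the difference between the groups. The share of all genes for which this held was not computed, so it does not set the 8 apart.

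The lowest array was a STYK1 array for 7 of the 8 factors, and the highest was a STYK1 array for 4 (CEBPB, ONECUT1, ONECUT2 and PROX1) and control replicate 1 for the other 4. STYK1 replicate 1 was the lowest array for 4 genes (FOXA1, CEBPA, ONECUT1 and PROX1) and STYK1 replicate 2 for 3 (FOXA2, FOXA3 and CEBPB), while control replicate 1 was lowest for 1 (ONECUT2). Over the genes above the floor these arrays were lowest for 23.1%, 27.0% and 28.1%. Of these 9622 genes, 2284 were highest on control replicate 1, 2938 on STYK1 replicate 1 and 2181 on STYK1 replicate 2. The median gap between the STYK1 arrays was 0.28 for the 8 factors and 0.14 for the genes above the floor, while that between the controls was 0.15 and 0.13.

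**Figure D4:**
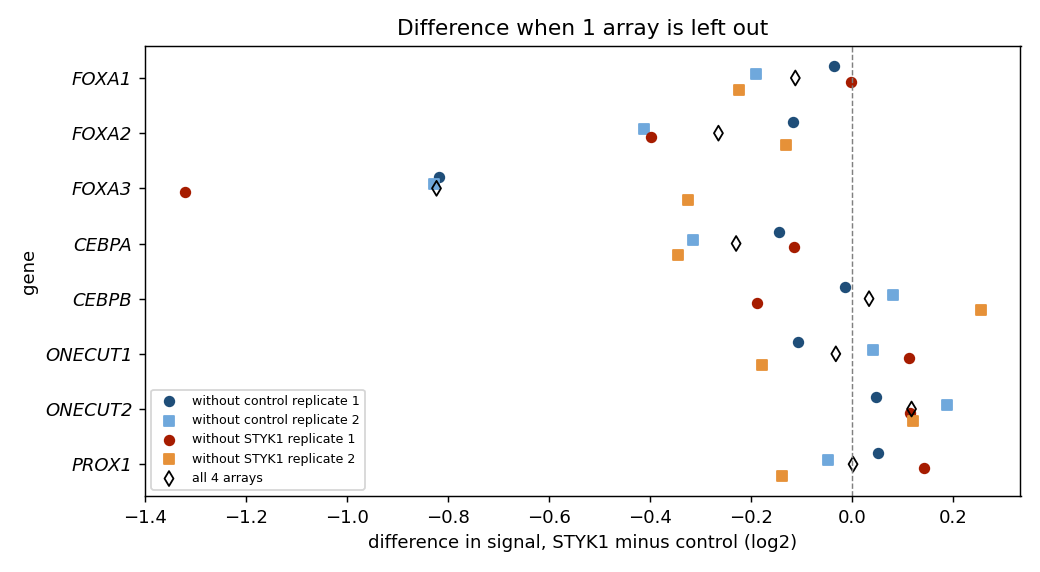
Difference in log2 signal, STYK1 minus control (horizontal axis), for each factor with 1 array left out (filled symbols) and with all 4 arrays (open diamonds). FOXA3 ranges from −1.32 to −0.32, and CEBPB, ONECUT1 and PROX1 fall on both sides of 0.

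Genes with a like pattern over the 4 arrays were sought among 9324 of the 9622 genes above the floor, by the root mean square distance between log2 values centred on each gene's mean. Left out were the factor itself and 297 genes whose symbols begin as those of uncharacterized loci or noncoding RNAs. Near genes are named for the 3 factors that spread most. FOXA3 had 1 gene within 0.1: POLR2J, an RNA polymerase II subunit, at 0.068. Its signal was 2.25 and 2.41 in the controls, 2.06 on STYK1 replicate 1 and 1.07 on STYK1 replicate 2. BBS2, a part of the ciliary BBSome, followed at 0.10, and an immunoglobulin heavy chain variable segment at 0.17. FOXA2 had 269 genes (2.88%) within that distance, with ZBED6, RPL7L1 and GPR37 nearest at 0.017 to 0.021. CEBPB had 856 (9.18%), with PTPRG, CRKL and NAB2 nearest at 0.011 to 0.014. For the other 5 factors, which spread less over the arrays, 691 to 2831 genes lay that near.

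Other C/EBP genes, their bZIP partners and their negative regulators also gave no gene past the test (limma, 0 of 16 measured, with 1 at an unadjusted p under 0.05). Means were lower with STYK1 for 9 and higher for 7, and the median of the 16 differences was −0.0096; of the 14 above the floor on all arrays, 8 were lower and 6 higher. DBP, a clock-controlled bZIP factor, read 2.04 and 2.30 in the controls and 1.75 and 1.88 with STYK1, a difference of −0.36 (standard error 0.13; limma, adjusted p = 0.979). CEBPD, an acute phase member of the family, differed by −0.19 and NFIL3, a repressor related to DBP, by 0.27, each with overlapping groups. DDIT3, the stress-induced partner CHOP, read 2.24 and 2.78 in the controls, 2.92 on STYK1 replicate 1 and 1.77 on STYK1 replicate 2.

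The order seen for CEBPB, with STYK1 replicate 1 highest and STYK1 replicate 2 lowest, recurred in this list, an order looked up after its values were seen. It held for 4 of the 14 genes above the floor: DDIT3, CEBPD, HLF and TRIB3, a pseudokinase of the stress response that read 3.84 and 4.41 in the controls and 4.46 and 3.75 with STYK1. Among all genes above the floor 10.4% had that order. ATF4, which drives DDIT3 and TRIB3 in the integrated stress response, read 7.14 and 7.01 in the controls. It read 7.13 on STYK1 replicate 1 and 6.94 on STYK1 replicate 2, and differed by −0.041 between the groups. Whether the gap between the STYK1 arrays in these genes bears on CEBPB was not tested.

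**Figure D5:**
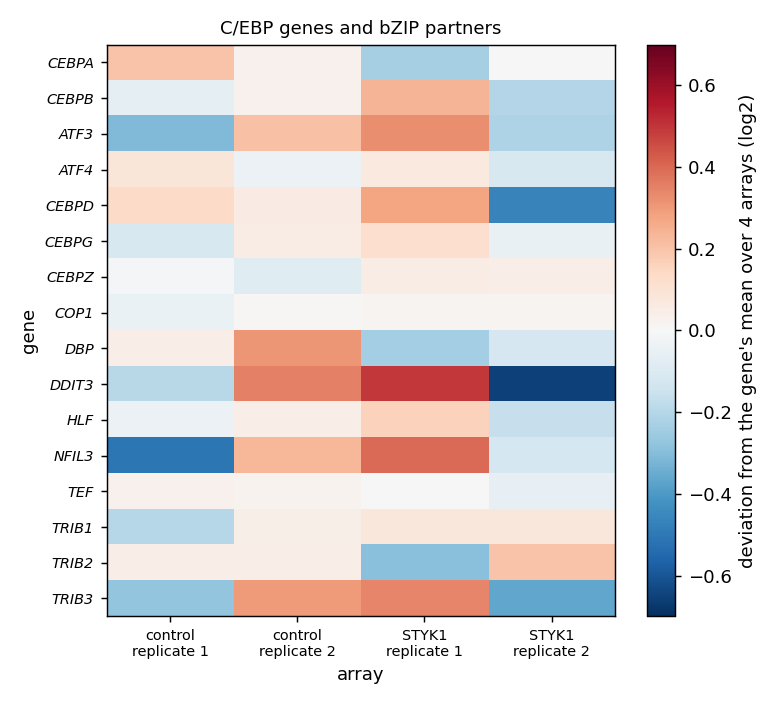
Log2 signal relative to the gene's own 4-array mean (colour) for CEBPA, CEBPB and 14 related genes above the floor (rows) on each array (columns). DDIT3 and TRIB3 are high on STYK1 replicate 1 and low on STYK1 replicate 2, with the same signs as CEBPB there.

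Other factors of liver identity were lower for 10 and higher for 5 of 15 measured genes, with a median of −0.048, and 0 passed (limma, 1 at an unadjusted p under 0.05). Of the 12 above the floor on all arrays, 7 were lower and 5 higher. FOXO1, the insulin-regulated forkhead factor of gluconeogenesis, read 1.76 and 1.79 in the controls and 2.11 and 2.41 with STYK1, a difference of 0.48 (standard error 0.13; limma, adjusted p = 0.979). GATA6, a zinc finger factor that works with FOXA in endoderm, read 4.30 and 3.97 in the controls and 3.85 and 3.70 with STYK1, a difference of −0.37. RXRA, the common partner of nuclear receptors, differed by −0.23 and NR0B2, a repressor in bile acid feedback, by −0.18, both with overlapping groups. GATA4 and XBP1 differed by −0.0024 and 0.016.

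The other forkhead genes, 20 measured, had 11 lower and 9 higher means, at a median of −0.016, and 0 passed (limma, 2 at an unadjusted p under 0.05). The 10 that were above the floor on all arrays leaned the other way, 7 higher and 3 lower, at a median of 0.061. FOXN2 differed by 0.44, with STYK1 replicate 2 at 5.74 and the other 3 arrays between 5.0 and 5.14. FOXP1 read 2.21 and 2.19 in the controls and 2.57 and 2.40 with STYK1, a difference of 0.29 (limma, adjusted p = 0.979). FOXF1 (−0.30) and FOXO3 (−0.26) lay near or under the floor. Among 12 measured cofactors of FOXA and PROX1, 5 were higher and 7 lower, at a median of −0.037, and 0 passed (limma, 1 at an unadjusted p under 0.05). That 1 was GRHL2, which was not above the floor on any array. The 8 above the floor on all arrays were 3 higher and 5 lower. KMT2C, a histone methyltransferase of enhancers, differed by 0.26, and HDAC3, a deacetylase that works with PROX1, by −0.18.

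Liver genes that these factors bind lay on both sides of 0. Of 18 measured genes with classical FOXA sites, 12 were higher and 6 lower, at a median of 0.047, and 0 passed (limma, 0 at an unadjusted p under 0.05). Of the 12 above the floor on all arrays, 9 were higher. ALB and ABCC2, an exporter at the bile canaliculus, were each 0.14 higher, and the thyroxine carrier TTR differed by −0.049. IGFBP1, a secreted binder of insulin-like growth factors, read 3.71 and 4.98 in the controls and 6.0 and 3.72 with STYK1, so arrays of the same group lay up to 2.28 apart. TAT, a tyrosine-degrading enzyme, read 2.52 and 3.15 in the controls and 3.35 and 2.45 with STYK1, in the array order of CEBPB.

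C/EBP target genes were lower for 10 and higher for 8 of 18 measured, with a median of −0.055, and 0 passed (limma, 0 at an unadjusted p under 0.05). Of the 12 above the floor on all arrays, 8 were lower. FGA, a fibrinogen chain, read 9.45 and 9.40 in the controls and 9.11 and 9.29 with STYK1, a difference of −0.22, while its partner chains FGB and FGG differed by 0.0076 and −0.052. HAMP, the iron hormone hepcidin, differed by −0.40 and haptoglobin, HP, by −0.11, each with overlapping groups. CRP and SAA1, acute phase genes, were not above the floor on any array. Genes tied to ONECUT and PROX1 were higher for 8 and lower for 5 of 13, with a median of 0.023, and 0 passed (limma, 0 at an unadjusted p under 0.05). Only 5 of these were above the floor on all arrays, and they leaned the other way, 2 higher and 3 lower, at a median of −0.030. CYP27A1, a bile acid synthesis enzyme, read 5.68 and 5.89 in the controls and 5.51 and 5.55 with STYK1, a difference of −0.26, and cyclin E1, CCNE1, differed by −0.35 with overlapping groups.

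Markers of other cell types gave 0 genes past the test (limma, 1 at an unadjusted p under 0.05, KRT19). Above the floor on all 4 arrays were 3 of 8 bile duct, 0 of 8 endothelial, 0 of 6 fibroblast and stellate cell, 3 of 6 immune, and 1 of 5 neuronal and endocrine markers. KRT19, a bile duct keratin, read 3.36 and 3.31 in the controls and 3.04 and 3.13 with STYK1, a difference of −0.26 (limma, adjusted p = 0.979), while SOX9, another duct factor, differed by −0.030. EPCAM, an adhesion protein of bile duct and progenitor cells, went the other way, at 5.93 and 6.21 in the controls and 6.26 and 6.24 with STYK1 (a difference of 0.18, no overlap). The 5 other duct markers were under the floor on at least 1 array. In RNA from whole cultures, fewer cells that express a gene and less RNA per cell cannot be told apart.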

How the data were processed

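Per the labels' protocols, RNA of transfected Huh7 cells was amplified into biotin-labelled cDNA with an Affymetrix whole-transcript kit. The authors deposited processed signals for 53617 probe sets on 4 arrays, taken here as log2 values. The base was inferred: as natural logs the largest value would stand for 84779, above the 65535 of a 16-bit scanner. The submitters' processing notes name the Transcriptome Analysis Console; for summarization, normalization and genome build the sources used here give nothing. Array medians were 0.615 to 0.629, and no further normalization was applied. Neither detection calls nor scan dates came with it, so no batch was known.

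Samples were grouped by title. No array copied another: exact values were shared at 242 probe sets between the controls, at 171 between the STYK1 arrays and at 170 to 227 across groups. The p-values then reflect the spread of these arrays alone, which may be technical. Probe sets were named from the platform annotation: 23871 had 1 symbol, 1842 several and 27904 none here, and 90 symbols were updated through RefSeq. Several genes on the lists have no row with a symbol of its own and are not analysed here. Groups were compared with limma 3.58.1 (R 4.3.3), lmFit and eBayes, two-sided, adjusted by Benjamini-Hochberg across the whole table, at a threshold of 0.05. The fit had 2 residual and 2.71 prior degrees of freedom. It was also run on simulated data as a check of the code. That run does not tell whether differences as small as those of the factors would be found.

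The factors and the gene lists were chosen with earlier results of these data known, so the lists are described by counts and medians with no test. From each list up to 4 genes with the largest difference and a signal above the floor on any array were eligible to be named, and for each of the 3 factors that spread most, the 3 genes nearest in pattern; other genes are named as parts of a stated count or as examples chosen after their values were seen. Alternatives left out each array, added the replicate number as a block, changed the eBayes prior, normalization, centring or filter, or took the median over a gene's probe sets.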

Additional observations from a re-analysis of the deposited data

How the results depend on the processing

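Of 80 recomputed differences of the 8 factors, over 10 alternatives each, 71 kept their direction. In the alternatives with 2 arrays a group, none passed the threshold (limma, smallest adjusted p 0.929, for FOXA3 with the filter). The replicate block, the eBayes prior, the filter and the median over probe sets left every difference unchanged. These alternatives could not turn a direction, so they are no check of it and they raise the count of 71. All reversals came with an array left out, quantile normalization or centring. FOXA1, FOXA2, FOXA3, CEBPA and ONECUT2 kept their direction in all 10, those that could not turn it included. With 2 arrays a group, FOXA3 had an unadjusted limma p under 0.05 after quantile normalization, after centring and with the median over probe sets. The same p was above 0.05 with the replicate block, the changed eBayes prior and the filter. The other 7 factors had no p under 0.05 in these alternatives. With 1 array left out, which lends the spread of the complete group to the single array, the differences ran from −0.19 to 0.25 for CEBPB, −0.18 to 0.11 for ONECUT1 and −0.14 to 0.14 for PROX1. PROX1 was −0.024 after quantile normalization and −0.036 after centring on probe sets above the floor, and CEBPB was −0.0047 after centring. These scalings moved the median difference over all probe sets by −0.0094 and −0.038. The median difference of the 8 factors ran from −0.16 (without STYK1 replicate 2) to −0.058 (without STYK1 replicate 1). The 1 probe set that passed, STYK1, became 0 with any array left out (lowest 0, highest 0) and 0 with the replicate block, each of which leaves 1 residual degree of freedom. Nothing in the labels says that equal replicate numbers mark a shared culture or day, and arrays with the same number did not deviate together (correlation −0.044 across the table). The replicate block left 0 of the 8 factors past the threshold. With 2 arrays a group, differences near the size of the gaps within a group could not be told from 0.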
